A study of Mus musculus with 54 samples.

Results

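Transcripts of 10 genes that mark astrocytes and radial glia were followed in mouse microglia that had been grown on astrocytes and shaken off them. The genes are Gfap, Aqp4, Slc1a3, Slc1a2, Aldoc, Gja1, Hes5, Sox9, Sparcl1 and Fabp7. They were taken by name, with earlier results of these data known, and all 10 were found among the 16632 genes of the deposited count table. They serve here as a gauge of astrocyte RNA in cultures that are labelled as microglia.

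The cells were primary microglia, which are the brain's resident macrophages, from neonatal C57BL/6 mice. Per the labels' protocols, the cells of 2 brains were plated in each flask and cultured for 7 to 10 days, and loosely attached microglia were then shaken from the astrocyte layer beneath them. Untreated cells gave 6 libraries, and 4 libraries came from cells that had received alpha-synuclein, the protein that aggregates in Parkinson's disease, without co-culture. The dose and time of these cells, 1 µM for 14 h, were those of the donors. In the co-cultures, donors had received 1 µM alpha-synuclein with a fluorescent Atto-488 label for 14 h, and acceptors had been stained with CellTracer Violet for 15 min. Donors and acceptors were mixed for 15, 30, 60, 150 or 300 min, separated by flow cytometric sorting, and collected. The labels also name donor and acceptor groups at 0 min. Whether the untreated and the alpha-synuclein-treated cells without co-culture passed through a sorter is not stated in the labels.

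Each library carries a number from 1 to 4. Number 1 is at passage 3, number 2 at passage 1, and numbers 3 and 4 are both at passage 2. The facility's own library numbers form 1 run for numbers 1 to 3 and a separate run for number 4. Among the untreated libraries, numbers 2 and 4 each occur in a pair. The libraries of such a pair differed from each other less than libraries of different numbers did, and their counts were summed, which gives 4 untreated units and 52 units over the 14 groups. Number 4 has no unit at 0 min, number 2 has none among donors at 60 min and number 3 none among acceptors at 300 min. No label says that the numbers stand for separate cultures or animals, so the p-values measure only the spread between these samples.

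Astrocytes are the glia that clear glutamate, buffer water and ions, and feed neurons. They derive from radial glia, the progenitors that line the ventricles of the developing brain. Microglia come from the yolk sac and do not share that lineage. Mixed glial cultures of neonatal brain contain both, with microglia sitting loosely on an astrocyte sheet, so shaking yields microglia with a varying carry-over of other cells and cell fragments. In astrocytes and their progenitors, Notch signalling acts through the DNA-binding protein RBPJ to switch on Hes5, and cytokines act through STAT3 to switch on Gfap.

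The libraries held 7807389 to 15537493 counts, with a median of 13036175.5. They were made by a 3′ method that yields about 1 tag per transcript, so counts do not scale with transcript length, and levels are given as CPM, counts per 1000000 counts of a unit's total after TMM scaling, edgeR's adjustment of library totals. At these depths 3 counts, the upper limit that a count of 0 allows, equal 0.193 to 0.384 CPM, and this covers counting error only. Of the microglial genes listed, Ctss, C1qb and C1qc were the highest and averaged 3061, 2670 and 2105 CPM. Others of the list were scarce: Gpr34, P2ry12, Tmem119 and Sall1 averaged 7.80, 5.93, 5.21 and 5.04 CPM. Siglech averaged 0.052 CPM, with no count in 37 of 52 units. The 18 microglial genes listed summed to 13934 to 23130 CPM in numbers 1 to 3. In number 4 the same sum was lower, at 6360 to 11648 CPM, and Rn45s, a precursor of ribosomal RNA, made up 18% of all counts on average, against 4.46 to 8.11% in the other numbers. The part of these shifts in the results below was not tested.

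Promoter windows of 4 members are printed because they are switched on by the pathways named above (Hes5 and Gfap) or hold the largest share of the members' counts (Fabp7) or the clearest split between donors and acceptors (Slc1a3). They are RefSeq sequences of build GRCm38.p6, from 250 bases before to 50 bases after a start site, 5′ to 3′ on the gene's strand, and capitals mark motif matches on either strand. The windows are chr4:154960673-154960972 on the plus strand for Hes5, chr11:102897151-102897450 on the minus strand for Gfap, chr10:57784673-57784972 on the plus strand for Fabp7 and chr15:8710758-8711057 on the minus strand for Slc1a3.
Hes5: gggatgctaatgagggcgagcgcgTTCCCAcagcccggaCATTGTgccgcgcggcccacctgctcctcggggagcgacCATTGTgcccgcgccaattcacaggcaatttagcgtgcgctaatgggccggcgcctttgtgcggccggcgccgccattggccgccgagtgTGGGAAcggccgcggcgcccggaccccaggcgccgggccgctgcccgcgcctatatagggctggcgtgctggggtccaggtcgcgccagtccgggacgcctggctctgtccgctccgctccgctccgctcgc
Gfap: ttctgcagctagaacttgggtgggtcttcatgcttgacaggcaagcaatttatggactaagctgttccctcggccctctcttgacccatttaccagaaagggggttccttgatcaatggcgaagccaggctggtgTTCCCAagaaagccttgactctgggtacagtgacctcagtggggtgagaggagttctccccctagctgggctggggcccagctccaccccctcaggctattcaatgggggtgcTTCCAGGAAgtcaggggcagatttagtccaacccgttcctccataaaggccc
Fabp7: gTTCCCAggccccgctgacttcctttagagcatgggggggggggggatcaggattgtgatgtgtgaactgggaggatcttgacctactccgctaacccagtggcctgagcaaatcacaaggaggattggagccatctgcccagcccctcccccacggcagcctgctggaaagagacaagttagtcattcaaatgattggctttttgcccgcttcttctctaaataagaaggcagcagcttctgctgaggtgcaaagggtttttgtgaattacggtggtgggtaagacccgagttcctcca
Slc1a3: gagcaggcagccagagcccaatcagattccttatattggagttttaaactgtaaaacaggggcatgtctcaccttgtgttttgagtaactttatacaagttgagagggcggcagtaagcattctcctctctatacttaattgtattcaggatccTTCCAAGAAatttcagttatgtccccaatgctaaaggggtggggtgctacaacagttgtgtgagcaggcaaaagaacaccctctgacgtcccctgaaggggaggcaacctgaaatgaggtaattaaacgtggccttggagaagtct

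The motifs searched were TGGGAA, the core that RBPJ binds, which is found in 25.6% of the 32841 promoters of the table, TTGGCA for the NFI factors of gliogenesis (14.1%), TTCNNNGAA for STAT factors (8.3%) and ACAATG for SOX factors (12.6%). The Hes5 window holds the RBPJ core at -226 and -82 from the start site and the SOX motif at -211 and -172. The Gfap window holds the RBPJ core at -115 and the STAT motif at -2, the Slc1a3 window holds the STAT motif at -96, and the Fabp7 window holds the RBPJ core at -249. Windows of 7 of the 10 members were searched, 8 windows in all, and Aqp4 was not looked up. Aldoc has 2 windows, one with the RBPJ core at -127 and the NFI motif at -146, the other with the RBPJ core at -17 and +18 and the STAT motif at -124 and -83. No match was found in the Slc1a2 and Gja1 windows, which says only that these letters are not in those windows. A match describes the sequence and is no evidence of binding in these cells.

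In the GENCODE annotation of GRCm38, all 10 members are protein-coding. Hes5 lies at chr4:154960923-154962371, Gfap at chr11:102887336-102900912, Fabp7 at chr10:57784881-57788450 and Sparcl1 at chr5:104079111-104113733. Slc1a3 lies at chr15:8634124-8710764, Slc1a2 at chr2:102658659-102790784, Aldoc at chr11:78322968-78327781, Gja1 at chr10:56377330-56402513 and Sox9 at chr11:112782224-112787760. An annotated transcript on the opposite strand overlaps Gfap, Aqp4, Slc1a2, Hes5 and Sparcl1, and one on the same strand overlaps Slc1a3. Use of strand in the counting is not given in the sources used here, so reads of these partners cannot be told apart from those of the members.

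Summed over the 10 genes, the members made up a small part of each library, and the sum varied mostly with the number. Untreated cells gave a sum of 9.99 CPM in number 1, 24.6 in number 2, 222 in number 3 and 317 in number 4. Cells with alpha-synuclein gave 12.7, 9.52, 32.0 and 68.3 CPM in the same order. Numbers 1 and 2 were low in both groups, and the ranges of the groups overlapped. Over all 52 units the sum ran from 6.14 CPM, or 0.000632% of the 15029452 counts of that unit (Wilson 95% interval 0.000517 to 0.000773%), in number 2 donors at 0 min to 317 CPM, or 0.0307% (0.0301 to 0.0314%), in the untreated cells of number 4. The sum was not turned into a share of cells, because fewer astrocytes and less RNA per astrocyte cannot be told apart in bulk RNA. How much of this RNA came from cells other than astrocytes was not tested.

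**Figure D1:**
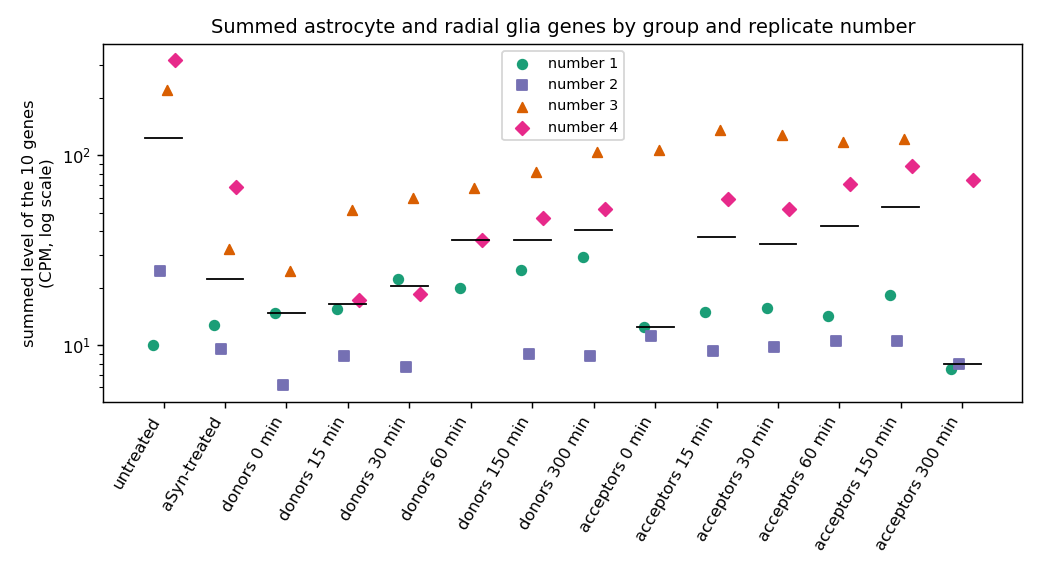
Sum of the 10 astrocyte and radial glia genes in CPM (log axis) for each of the 14 groups. Each point is 1 of the 52 units, marked by its number, and the black bar is the group's median. Points of numbers 3 and 4 lie above those of numbers 1 and 2 of the same group except in donors at 30 min, where number 4 is at 18.6 and number 1 at 22.3 CPM, and the untreated units of numbers 3 and 4 are the highest, at 222 and 317 CPM.

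The spread within a group was as wide as the gaps between groups. The mean sum was 143 ± 151 CPM (SD, n = 4) in untreated cells and 30.6 ± 27.0 (n = 4) in cells with alpha-synuclein. Donors averaged 15.2 ± 9.26 CPM at 0 min (n = 3), 23.3 ± 19.2 at 15 min, 27.1 ± 22.6 at 30 min (n = 4 each), 41.2 ± 24.2 at 60 min (n = 3), 40.5 ± 31.4 at 150 min and 48.5 ± 41.1 at 300 min (n = 4 each). Acceptors averaged 43.7 ± 55.2 CPM at 0 min (n = 3), 54.9 ± 58.5 at 15 min, 51.5 ± 54.4 at 30 min, 53.2 ± 51.0 at 60 min, 59.6 ± 53.9 at 150 min (n = 4 each) and 29.8 ± 38.3 at 300 min (n = 3). In the order of means, untreated cells stood first and donors at 0 min last, and each neighbour in that order overlapped the next. Means of the groups that lack a number are not comparable with the others: the low mean of acceptors at 300 min comes from a group without number 3.

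By number, the sum was 7.48 to 29.1 CPM with a median of 15.3 in number 1 (14 units), and 6.14 to 24.6 with a median of 9.29 in number 2 (13 units). It was 24.7 to 222 CPM with a median of 104 in number 3 (13 units), and 17.3 to 317 with a median of 55.7 in number 4 (12 units). Number 2 did not overlap number 3, though their edges were close. The 2 numbers at passage 2 were the highest, but with 1 number each at passages 1 and 3, passage and number cannot be told apart.

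All 10 members differed between the numbers in edgeR's quasi-likelihood test over the 52 units with the group as a covariate. The adjusted p ran from 1.45e-16 for Gfap to 0.00116 for Aldoc. This is no mark of these genes alone, since 81.7% of all 13169 genes tested passed the same test. The number accounted for 80.9% of the variance of Gfap on the log2 CPM scale, 79.9% for Sox9, 75.1% for Sparcl1 and 72.4% for Fabp7, against a median of 33.9% over all genes tested. For Aldoc it was 24.7% and for Hes5 23.4%, below that median.

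Gja1, Aqp4 and Gfap, structural and membrane genes of mature astrocytes, had low means of 0.417, 0.731 and 0.897 CPM over all units, as did Hes5 (0.819 CPM), described with the progenitor genes. Gfap, the intermediate filament of astrocytes, had a median of 0.0836 CPM in number 1, 0 in number 2, 0.305 in number 3 and 2.63 in number 4. In number 2 it had no count in 10 of 13 units and at most 2 counts in the rest, whereas number 4 gave 9 to 401 counts. Gfap of number 4 did not overlap numbers 1 and 2.

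Aqp4, the water channel of astrocyte endfeet, had 0 counts in all 13 units of number 2 and in 9 of 14 units of number 1. Number 3 gave 0 to 31 counts, and number 4 gave 8 to 283 counts in its 12 units, a median of 2.09 CPM. Gja1, the gap junction protein that couples astrocytes, stayed at 0 to 9 counts in numbers 1 and 2, reached 20 counts in number 3 and 97 in number 4. Aqp4 separated number 4 from numbers 1 and 2 without overlap, and Gja1 did not.

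The metabolic genes were detected more widely. Slc1a3, a glutamate transporter of astrocytes and radial glia, had a median of 1.67 CPM in number 1, 1.49 in number 2, 10.2 in number 3 and 7.61 in number 4, with at least 4 counts in every unit. Slc1a2, the main glutamate transporter of mature astrocytes, had medians of 0.518, 0.256, 3.35 and 4.78 CPM. Aldoc, the brain aldolase of glycolysis, had medians of 4.90, 3.23, 6.71 and 4.75 CPM, so its medians varied least between the numbers. Both transporters were high in numbers 3 and 4 and low in numbers 1 and 2, and the ranges of Aldoc overlapped in all 4 numbers.

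Of the progenitor genes, Fabp7, a fatty acid binding protein of radial glia, was the member with the most counts, at a mean of 17.9 CPM over the 52 units. Its median was 6.09 CPM in number 1, 2.73 in number 2, 56.0 in number 3 and 7.92 in number 4. All 13 units of number 3, at 13.2 to 103 CPM, lay above the 14 of number 1 (1.39 to 10.1) and the 13 of number 2 (1.42 to 11.5). Number 4 spanned 1.46 to 62.7 CPM and overlapped all 3.

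Sox9, a transcription factor that sets the glial fate, had medians of 0.600, 0.194, 5.05 and 5.07 CPM. Sparcl1, a secreted protein by which astrocytes promote synapses, had medians of 1.82, 1.21, 14.2 and 20.3 CPM and a mean of 10.4 over all units. Hes5, the Notch target, was near the floor in most units, with medians of 0, 0, 0.534 and 0.180 CPM and no count in 22 of 52 units. Sox9 and Sparcl1 were high in both numbers at passage 2, whereas Hes5 stood out in the untreated units of those numbers.

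**Figure D2:**
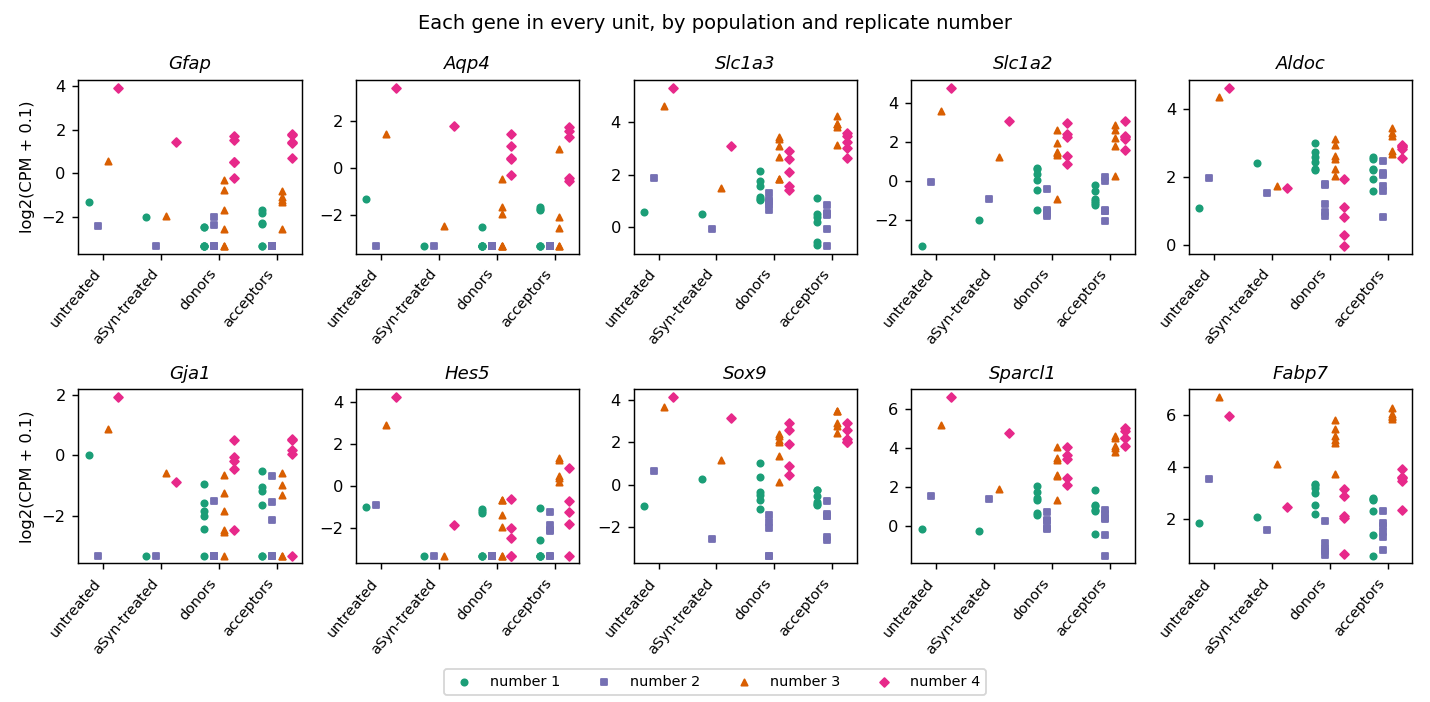
Level of each of the 10 genes as log2(CPM + 0.1) in untreated cells, cells with alpha-synuclein, donors and acceptors. Each point is a unit marked by its number, and units with no count lie at the bottom of each panel. Numbers 3 and 4 lie above numbers 1 and 2 for most genes, and Hes5 is high in the untreated units of numbers 3 and 4 and at or near 0 in most donors.

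The make-up of the sum also differed between the numbers at passage 2. Pooled over its units, number 3 held 16373 counts of the 10 genes, of which Fabp7 made up 52.7% and Sparcl1 15.15%. Number 4 held 15607 counts, of which Fabp7 made up 17.51% and Sparcl1 32.93%. The order of the 2 genes was thus reversed between numbers of like total, and the ranges over units did not overlap: Fabp7 took 46.5 to 61.0% of the sum in number 3 and 7.80 to 24.3% in number 4.

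The mature markers followed Sparcl1. Gfap made up a median of 4.0% of the sum in number 4 and 0.316% in number 3, and Aqp4 3.8% and 0.109%. In numbers 1 and 2, with 2809 and 1995 pooled counts, Fabp7 and Aldoc were the largest parts. Aldoc took a median of 29.4 and 29.1% there, against 9.0% in number 3 and 7.94% in number 4. These shares are descriptions, and no test was run on them.

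**Figure D3:**
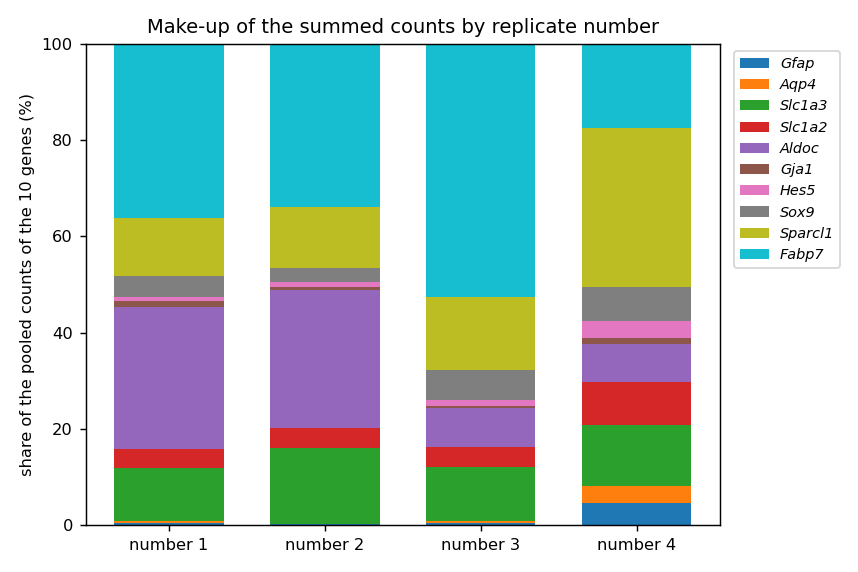
Share of each of the 10 genes in the pooled counts of the 10 genes, in percent, for each number. Each bar stacks to 100%. Fabp7 is the largest part in number 3 (52.7%) and Sparcl1 in number 4 (32.93%), and Aldoc is larger in numbers 1 and 2 than in numbers 3 and 4.

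Untreated cells and cells with alpha-synuclein differ in the label by the protein alone, and the 10 genes were lower with alpha-synuclein in numbers 3 and 4. In number 1 the sum of untreated cells was 0.784 times that of cells with alpha-synuclein, in number 2 it was 2.59 times, in number 3 6.92 times and in number 4 4.65 times. Hes5 had the largest gap. Untreated cells gave 4, 10, 87 and 496 Hes5 counts in numbers 1 to 4, and cells with alpha-synuclein gave 0, 0, 0 and 2 counts. The 4 units of each group did not overlap. Set against the floor of 3 counts per library, Hes5 was 28.9-fold lower with alpha-synuclein, and at least 12.3-fold without number 4. The first value is no lower bound, because number 4 held 2 counts and the floor is the upper limit for a count of 0. Within a number the bound was 1.83-fold in number 1, 2.05-fold in number 2 and 31.3-fold in number 3. For number 4 the same floor gave 71.4-fold, which is no bound either. The gap in counts is wide in numbers 3 and 4 and rests on 4 and 10 counts in numbers 1 and 2.

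The other members with the highest mean levels, Fabp7, Sparcl1, Slc1a3 and Aldoc, gave the following in the same comparison. Fabp7 was at 3.43, 11.5, 103 and 62.7 CPM in untreated cells and at 4.13, 2.84, 17.3 and 5.32 CPM with alpha-synuclein. Sparcl1 was at 0.807, 2.83, 37.1 and 98.5 CPM in untreated cells and at 0.737, 2.56, 3.74 and 28 CPM with alpha-synuclein. Both genes overlapped between the groups, were close in number 1 and were lower with alpha-synuclein in numbers 3 and 4. Aldoc was at 2.02, 3.84, 20.5 and 24.6 CPM in untreated cells and at 5.16, 2.77, 3.18 and 3.06 CPM with alpha-synuclein, so number 1 went the other way from numbers 3 and 4. Slc1a3 was at 1.41, 3.58, 23.7 and 39.0 CPM in untreated cells and at 1.33, 0.853, 2.70 and 8.38 CPM with alpha-synuclein, close in number 1 and lower in numbers 2 to 4. In number 1, Sox9 (0.404 CPM untreated, 1.11 with alpha-synuclein) and Slc1a2 (0 and 0.147 CPM) were higher with alpha-synuclein. Gfap, Aqp4 and Gja1 were lower there, at few counts. In numbers 3 and 4, Sox9, Slc1a2, Gfap, Aqp4 and Gja1 were all lower with alpha-synuclein.

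In edgeR's quasi-likelihood test fitted to all 14 groups, Hes5 passed an adjusted p of 0.05 (adjusted p = 0.0231) and the other 9 did not, against 0.896% of all genes tested that were called lower. With the number as a block, 8 of the 10 were lower, against 10.2% of all genes. Blocked log2 fold changes were -2.54 (SE 0.52, adjusted p = 0.000588) for Fabp7 and -2.07 (SE 0.55, adjusted p = 0.00655) for Slc1a3 in edgeR, and Gja1 (adjusted p = 0.0903) and Sox9 (adjusted p = 0.0571) were not called. The median blocked log2 fold change of the 10 was -2.19, against -0.05 over all genes tested, and it is the same with Hes5 set at the floor of 3 counts. These calls came from numbers 3 and 4: with the block, 7 members were called in those numbers alone and none in numbers 1 and 2 alone, where 1181 of all genes were called. With each number left out in turn, 2 to 8 members were called with the block. Without the block, Hes5 was lost whichever number was left out, with adjusted p from 0.0651 to 0.118 in edgeR.

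Acceptors had not received alpha-synuclein before co-culture, and in numbers 2 to 4 they too were lower than untreated cells. Averaged over the co-culture times within a number, the sum of untreated cells was 0.718, 2.5, 1.82 and 4.61 times that of acceptors in numbers 1 to 4. Hes5 fell from 7.46 CPM in untreated cells to a mean of 1.65 in acceptors of number 3, and from 18.7 to 0.544 CPM in number 4. For Gfap of number 4 the values were 15.1 CPM in untreated cells and 1.54 to 3.36 in acceptors. Untreated units of numbers 3 and 4 lay above all acceptors of the same number for Hes5 and Gfap.

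In edgeR, Hes5 was called without the block (log2 fold change -3.65, SE 0.81, adjusted p = 0.0193), against 0.486% of all genes called lower. With the block, 9 of 10 members were called lower, against 7.28% of all genes, and Gja1 was not (adjusted p = 0.0614). Fabp7 had a blocked log2 fold change of -1.69 (SE 0.33, adjusted p = 0.000709) and Gfap of -2.18 (SE 0.44, adjusted p = 0.00097) in edgeR. Leaving out each number in turn left 3 to 9 members called with the block, and numbers 1 and 2 alone left none, where 911 of all genes were called. This comparison shares the untreated units with the one before it, so a high untreated unit enters both. The dye and the co-culture differ between these groups and the sort may, and these cannot be told apart here.

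Donors and acceptors passed through the same co-culture and the same sort, and they differed in opposite directions by number. The sum was lower in donors than in acceptors of the same time in 0 of 6 pairs of number 1, 4 of 5 of number 2, and 5 of 5 in each of numbers 3 and 4. Slc1a3 made the clearest split. In number 1 it was at 1.92 to 4.27 CPM in the 6 donor units and 0.535 to 2.05 in the 6 acceptor units, higher in donors in 6 of 6 pairs. In number 3 it was at 3.43 to 10.6 CPM in donors and 8.60 to 18.3 in acceptors, lower in donors in 5 of 5 pairs. Number 2 followed number 1 in 5 of 5 pairs and number 4 followed number 3 in 5 of 5 pairs.

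A test of whether the donor to acceptor difference varies among the 4 numbers, added after the values were seen, called 6 of the 10 members in edgeR, against 38.6% of all genes tested. Within a number the co-culture times stood in for replicates, and they may come from the same cultures. The SEs and p-values therefore measure scatter between time points, not between repeats of a number. For Slc1a3 the log2 difference was 1.23 (SE 0.33) in number 1, 0.65 (SE 0.34) in number 2, -1.12 (SE 0.26) in number 3 and -1.03 (SE 0.28) in number 4 (adjusted p = 8.82e-06 in edgeR). Fabp7 gave 0.66, -0.53, -1.03 and -1.10 (adjusted p = 0.00147), and Sparcl1 gave 0.40, -0.01, -1.36 and -1.42 (adjusted p = 0.000928). Aldoc gave 0.31, -0.58, -0.59 and -1.92 (adjusted p = 4.39e-05). Slc1a3 thus reversed its sign between numbers, while Sparcl1 was lower in donors of numbers 3 and 4 and within 2 SE of 0 in numbers 1 and 2. Hes5 (adjusted p = 0.0326) and Sox9 (adjusted p = 0.0376) were also called, and Gfap, Aqp4, Slc1a2 and Gja1 were not.

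**Figure D4:**
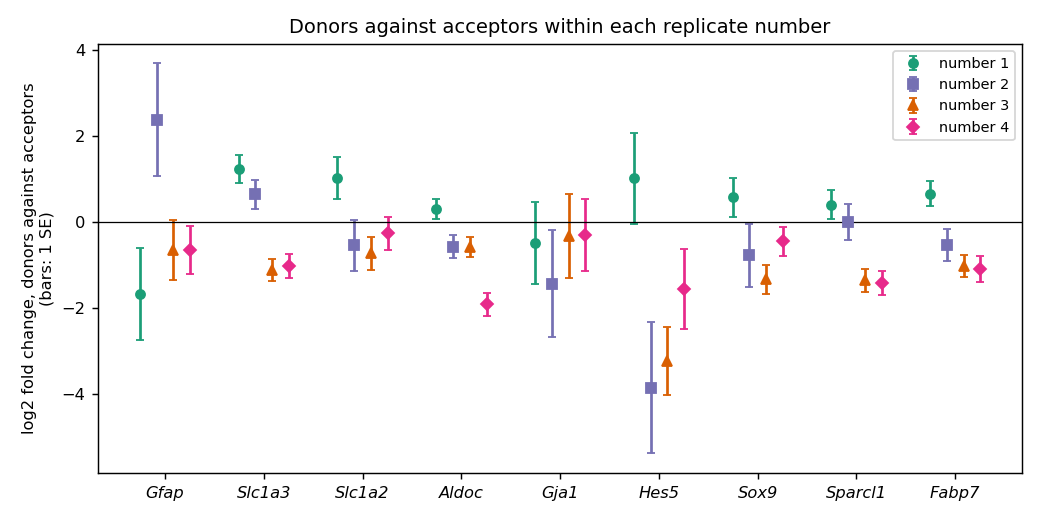
Log2 fold change of donors over acceptors in each number, with bars of 1 SE, for the 9 genes whose errors could be drawn. The SE measures scatter between co-culture times, not between repeats of a number. Aqp4 is left out because number 2 has no count. In number 2, Gfap has no count in acceptors and Hes5 none in donors, so the size of these 2 points is not measured. Slc1a3 lies above 0 in numbers 1 and 2 and below 0 in numbers 3 and 4, and Aldoc is lowest in number 4 at -1.92.

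Averaged over the numbers, the donor to acceptor difference was called for Hes5 alone among the members (edgeR log2 fold change -2.64, SE 0.73, adjusted p = 0.00669), against 12.9% of all genes called lower. Donors held 0 to 7 Hes5 counts in all 22 units. Acceptors of number 3 held 14 to 35 counts, above all donor units, and other acceptors held 0 to 23. Without number 3 the edgeR adjusted p was 1.00 and without number 4 it was 0.0554, so the call rests on those numbers. With the block, edgeR called Hes5 (adjusted p = 0.000576), Sparcl1 (log2 fold change -0.77, SE 0.26, adjusted p = 0.0139) and Aldoc (-0.57, SE 0.22, adjusted p = 0.0336) lower, against 24.0% of all genes. With a number left out in turn, 0 to 6 members were called with the block, the 0 without number 3.

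Donors after co-culture were compared with cells that had received alpha-synuclein and were not co-cultured. The mean sum of donors over the times was 1.66, 0.847, 2.02 and 0.499 times that of cells with alpha-synuclein in numbers 1 to 4, in no common direction. No member was called by edgeR without or with the block, none had an unadjusted p under 0.05, and DESeq2 called none. Over all genes 0.00759% were called without the block and 0.0152% with it, and 189 and 539 genes had an unadjusted p under 0.05. The blocked log2 difference was 0.37 (SE 0.43) for Fabp7, -0.48 (SE 0.44) for Sparcl1 and 0.48 (SE 0.46) for Slc1a3, and 2 SE either side of each of these covers both no change and a 2-fold change. Hes5 was at or under 7 counts in all units of both groups, and no fold is given.

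Over co-culture time, the summed members were higher at later than at earlier times in donors of numbers 1, 3 and 4. The sum in donors of number 3 was 24.7, 51.5, 59.7, 67.5, 81.6 and 104 CPM from 0 to 300 min, and in number 4 it was 17.3, 18.6, 36.0, 46.6 and 51.9 from 15 to 300 min. In number 1 it was 14.7, 15.6, 22.3, 20.04, 24.8 and 29.1 CPM. In number 2 it was 6.14, 8.73, 7.65, 8.97 and 8.82 CPM, without the 60 min unit. Donors of number 3 were higher at each later time and those of number 4 likewise, number 1 did so but for 1 dip, and number 2 stayed between 6.14 and 8.97 CPM.

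Acceptors were less regular over time. Those of number 3 held 107, 136, 128, 118 and 121 CPM from 0 to 150 min, and those of number 4 held 59.1, 52.3, 70.5, 88.1 and 74.1 from 15 to 300 min. Those of number 1 held 12.5, 15.0, 15.7, 14.3, 18.5 and 7.48 CPM, and those of number 2 held 11.2, 9.29, 9.76, 10.5, 10.5 and 7.95. Numbers 1 and 2 had their lowest acceptor sum at 300 min.

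**Figure D5:**
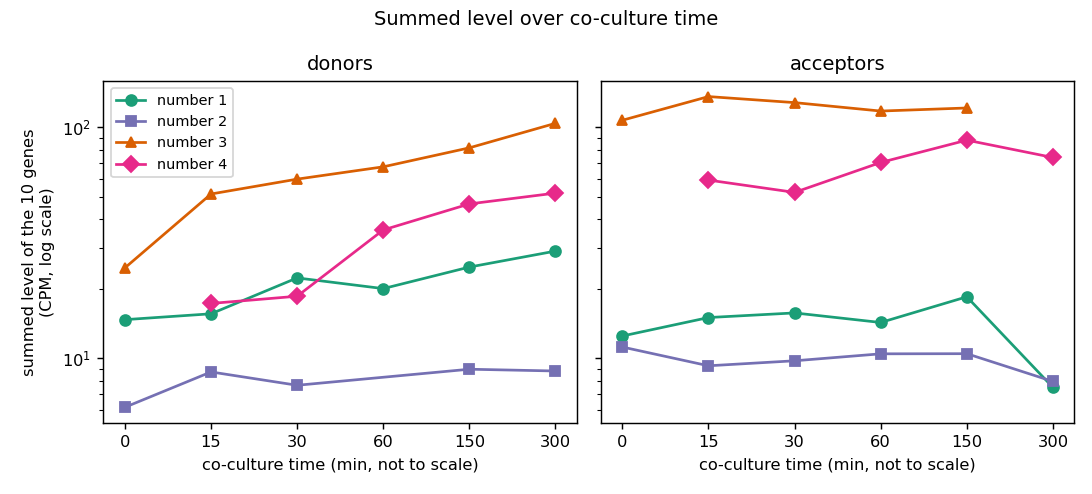
Sum of the 10 genes in CPM (log axis) against co-culture time (0, 15, 30, 60, 150 and 300 min, evenly spaced and not to scale) in donors and acceptors, with a line for each number. Donor lines of numbers 1, 3 and 4 climb, from 24.7 to 104 CPM in number 3. Acceptor lines are flatter in number 3 (107 to 136 CPM), go from 59.1 to 74.1 CPM in number 4 with a peak of 88.1 at 150 min, and are lowest at 300 min in numbers 1 and 2.

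The F test of any difference among the 6 times, without the block, called none of the 10 members in donors or acceptors, and none had an unadjusted p under 0.05 (edgeR). It called 0.0607% of all genes in donors and 0.00759% in acceptors. With the block it called none of the 10 either, against 0.577% of all genes in donors and 0.137% in acceptors, and in donors 2 members had an unadjusted p under 0.05. DESeq2 called none of the members in these tests.

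A trend over the rank of the time, with a level for each population and number, was added after the values were seen. In donors 6 of the 10 rose per time step in edgeR, against 2.77% of all genes, and all 10 slopes were above 0. Sparcl1 was at 2.44, 6.15, 5.90, 10.4, 11.2 and 16.8 CPM over the times in donors of number 3, at 4.28, 5.42, 10.7, 12.7 and 16.5 in number 4 from 15 min on, and at 1.40, 1.49, 2.67, 2.46, 3.35 and 4.05 in number 1. Its slope was 0.36 log2 units per step (SE 0.06, edgeR adjusted p = 0.000152), which is 3.47-fold over the 5 steps. In number 2 Sparcl1 was at 0.799 to 1.59 CPM with no such order.

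Fabp7 rose by 0.28 per step (SE 0.06, edgeR adjusted p = 0.00238), 2.62-fold over the 5 steps, from 13.2 CPM at 0 min to 56.0 at 300 min in number 3. Slc1a3 rose by 0.22 (SE 0.05, edgeR adjusted p = 0.0104), Slc1a2 by 0.35 (SE 0.10, adjusted p = 0.0207), Gfap by 0.52 (SE 0.16, adjusted p = 0.0391) and Aldoc by 0.16 (SE 0.05, adjusted p = 0.0455). The Gfap slope rests on few counts: donors held 0 to 1, 0 to 2 and 0 to 8 in numbers 1 to 3, and 9 to 44 in number 4. Sox9, Hes5, Gja1 and Aqp4 were not called, with edgeR adjusted p from 0.0557 to 0.453. With a number left out in turn, 1 to 5 members were called, 1 without number 3 and 2 without number 4, and Sparcl1 was called each time.

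In acceptors the trend called none of the 10 in edgeR, with none at an unadjusted p under 0.05, against 1.62% of all genes. The difference between the donor and the acceptor slope was above 0 for all 10 members, but none was called in edgeR, against 1.76% of all genes. At an unadjusted p under 0.05 there were 7 members, against 1770 of all 13169 genes, and Sparcl1 had the lowest adjusted p, 0.0585. The rise in donors is therefore not shown to differ from the course in acceptors.

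The members varied together. Over the 52 units the 45 pairs of members had a Pearson r of log2 CPM from 0.21 (Aqp4 and Aldoc) to 0.93 (Slc1a2 and Sparcl1), with a median of 0.65. With the mean of each number subtracted the range was 0.20 to 0.75 and the median 0.52. The units share libraries' depth, composition and handling, and these values are descriptions.

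Genes most like the mean of the members were looked for among 11297 genes with a mean of at least 1 CPM. Among the closest over the 52 units were Gpm6b (r = 0.94), a membrane glycoprotein of glia, Sox2 (0.93), a transcription factor of neural progenitors, Ptn (0.93), a growth factor, Ptprz1 (0.92), the receptor phosphatase that binds it, and Cadm2 (0.92). Nrxn2, Tmod2, Atp1b2 and Ntrk2 followed at 0.91. With the number means subtracted, Olig1 (0.89), a transcription factor of the oligodendrocyte lineage, came first, followed by Gpm6b (0.85), Rtn1 (0.84), Ncan (0.83), Ptprz1 (0.83), Ncam1 (0.83), Adgrl1, Sox2, Spon1 and Klhl13 (0.81 each).

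Most of the other astrocyte genes, listed apart from the members, lay below untreated cells too. With the block, 33 of 36 had a log2 fold change under 0 with alpha-synuclein (median -1.51, against -0.05 over all genes tested), and 33 of 36 in acceptors (median -1.36, against -0.03). The list sum is led by Vim (1593 CPM), Glul (359 CPM) and Dbi (313 CPM), which are not restricted to astrocytes, so it was not used as a gauge. Of 36 tested, edgeR called 1 lower in acceptors than in untreated cells without the block, against 0.486% of all genes. It was the calcium-binding protein S100b (log2 fold change -2.55, edgeR adjusted p = 0.0383). With the block 16 were lower, against 7.28% of all genes, and none was higher. With alpha-synuclein 13 were lower and 1 higher with the block, against 1346 and 1178 of all 13169 genes. None was lower without the block, where 11 of the 36 had an unadjusted p under 0.05, against 2254 of all genes. Gpm6b had a blocked log2 fold change of -2.13 (SE 0.46, adjusted p = 0.000929) and Sox2 of -1.58 (SE 0.53, adjusted p = 0.032). Vim, an intermediate filament, was the 1 called higher, with a rise of 1.14 (SE 0.20, adjusted p = 0.00105) without the block. In the donor trend 9 rose, against 2.77% of all genes, and Vim fell. Sox2 rose by 0.46 (SE 0.07, edgeR adjusted p = 5.55e-05) and Gpm6b by 0.37 (SE 0.05, adjusted p = 5.55e-05) per step. The slope was steeper in donors than in acceptors for 6 of the 36 genes, Gpm6b, Id4, Ncan, Nfib, Ptprz1 and Sox2, against 73 of all 13169 genes.

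Genes of reactive astrocytes were mixed. Of 9 tested, Vim and Cd44, an adhesion receptor, were higher with alpha-synuclein without the block, Cd44 by 0.69 (SE 0.15, edgeR adjusted p = 0.00565), against 1.60% of all genes called higher, and none was lower. In acceptors against untreated cells none was called without the block, where 3 had an unadjusted p under 0.05, against 1592 of all 13169 genes. With the block edgeR called 3 lower, S1pr3, Serpina3n (-2.39, SE 0.52, adjusted p = 0.00219) and Cxcl10, and Lcn2 higher, against 10.9% of all genes called in either direction. In donors against acceptors 5 were higher, Vim, Cd44, Cp, Cxcl10 and Lcn2, against 12.7% of all genes, and Hspb1 was lower, against 12.9%. Lcn2, a secreted iron-carrier binding protein of inflammation, was higher by 4.48 (SE 1.12, adjusted p = 0.00263). Several of these genes are also expressed by activated microglia.

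Genes of the Notch pathway around Hes5 were called in both directions. Of 13 tested, none was called with alpha-synuclein without the block in edgeR, and 4 had an unadjusted p under 0.05, against 2254 of all 13169 genes. With the block Hes1, Notch1 and Rbpj were higher and the ligand gene Dll3, scarce at a mean of 0.327 CPM, was lower. Of all genes, 19.2% were called there in either direction. Hes1, a Notch target that many cell types use, rose by 1.30 (SE 0.41, adjusted p = 0.0208). In donors against acceptors, where Hes5 was lower, Hes1 (0.85), Notch1 (0.78), Rbpj (0.37) and Notch2 (0.27) were higher and the Notch-modifying enzyme gene Lfng (-0.40) was lower on the log2 scale without the block. Of all genes, 12.7% were called higher and 12.9% lower in that comparison. No gene of this list had a called trend over time.

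Markers of other cells that a shaken culture can hold are given beside these results, and their part in them was not tested. Of 15 oligodendrocyte lineage genes tested, edgeR called 4 lower in acceptors than in untreated cells without the block, against 0.486% of all genes. Mog, Mobp and Cldn11 of myelin were among the 4. With the block 12 were lower, against 7.28% of all genes. With alpha-synuclein 4 were lower with the block, against 10.2% of all genes: Olig1, Olig2, Pdgfra and Sox10, genes of oligodendrocyte precursors. Olig1, Olig2 and Pdgfra rose over time in donors, against 2.77% of all genes. The list summed to 113 to 737 CPM and was highest in the untreated unit of number 3.

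Neuronal genes summed to 16.3, 21.5, 68.5 and 65.6 CPM in untreated cells of numbers 1 to 4 and to 17.8, 11.2, 19.8 and 16.5 CPM with alpha-synuclein, so the untreated units of numbers 3 and 4 were high here too. Of 10 tested, 2 were lower with alpha-synuclein and 4 in acceptors, with the block, against 10.2% and 7.28% of all genes. Over time in donors all 10 slopes were above 0, and edgeR called 2 higher, against 2.77% of all genes. These were Dcx (0.53 per step, SE 0.14, edgeR adjusted p = 0.0136) and Elavl4 (0.37, SE 0.06, adjusted p = 9.45e-05), genes of young neurons. The slope of Elavl4 was also steeper in donors than in acceptors (0.32, SE 0.08, adjusted p = 0.0303). The genes of fibroblasts and mural cells summed to 0.912 to 31.0 CPM, highest in number 4. Of 7 tested, 3 were lower in acceptors than in untreated cells with the block, against 7.28% of all genes. Of 5 endothelial genes, edgeR called Pecam1 higher with alpha-synuclein (2.53, SE 0.70, adjusted p = 0.0389), against 1.60% of all genes. In donors against acceptors 3 were higher without the block, against 12.7% of all genes. Of 17 microglial genes, none was called in untreated cells against cells with alpha-synuclein or acceptors without the block, with 1 in each at an unadjusted p under 0.05, and with the block 4 and 2 were called, against 19.2% and 10.9% of all genes. In donors against acceptors 1 of the 17 was higher and 3 were lower without the block, against 12.7% and 12.9% of all genes. With the block 5 were higher and 6 lower, against 2683 and 3156 of all 13169 genes. Tmem119 was among those higher, and Trem2 and Sall1 were among those lower.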

How the data were processed

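RNA was measured in 54 libraries in 14 groups. The authors deposited raw counts per gene symbol, per the file headers. STAR, Partek, DESeq2 and mm10 are named in the submitters' processing notes, and counting settings, annotation and use of strand are not given in the sources used here. A second deposited table of normalized values was not used. Counts of the doubled untreated libraries were summed (chi-square per degree of freedom 12.1 and 10.3 within a number, 24.2 to 288 between numbers).

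Groups were compared with edgeR 4.0.16 (with limma 3.58.1, in R 4.3.3): genes were kept by group with filterByExpr (smallest count 10), scaled with TMM, and tested by quasi-likelihood over all 14 groups, with Benjamini-Hochberg adjustment over all 13169 genes kept. All 10 members passed the filter. Genes were called at an adjusted p under 0.05. DESeq2 1.42.0, RLE scaling, no filter, the compared groups alone, the 6 untreated libraries apart, and each number left out were alternatives. Log2 CPM for correlations used a prior count of 2. The number was taken from the titles, and same-numbered units deviated together (lowest correlation 0.163 in any pair), so the number was also fitted as a block. The biological coefficient of variation was 38.1% without and 21.0% with it.

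The members and lists were chosen with earlier results of these data known. Named genes are the 10 members, the list genes that were called or led their list's level, and the 10 genes closest to the members' mean log2 CPM. Some genes that this rule names are not reported here. Tested on simulated data for alpha-synuclein against untreated (13169 genes), the test recovered 31 of 100 genes changed 2-fold and 68 of 100 changed 4-fold, with 6 false calls. The simulated units had no shared effect of the number and the changed genes were picked at random, so these rates need not hold for the members.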

Additional observations from a re-analysis of the deposited data

Results flagged for a closer look

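In groups of at least 4 units, a unit that stood far from the others was seen in 11 of 110 combinations of a group with a member or with the sum of the members. No chance rate is given, because many units hold 0 counts and the same numbers recur in each group. Number 4 was the high unit for Gfap in donors at 15 min (1.35 CPM), for Aqp4 in cells with alpha-synuclein (3.4 CPM), donors at 150 min (1.24), acceptors at 30 min (0.648) and acceptors at 60 min (3.24), and for Gja1 in acceptors at 60 min (0.925). It was also the high unit for Hes5 in cells with alpha-synuclein (0.175 CPM) and donors at 150 min (0.146). Number 3 was the high unit for Hes5 in donors at 15 min (0.16 CPM) and acceptors at 150 min (1.19), and for Fabp7 in acceptors at 15 min (66.6). Most of these values stand against units with few or no counts.

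The donor to acceptor difference varied between the numbers for 6 members in edgeR's test of that difference: Slc1a3 (adjusted p = 8.82e-06), Aldoc (4.39e-05), Sparcl1 (0.000928), Fabp7 (0.00147), Hes5 (0.0326) and Sox9 (0.0376).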

How the results depend on the processing

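RLE scaling and no filter changed no call on the members. Counts below are edgeR calls of 13169 genes, then of the 10 members. Alpha-synuclein against untreated gave 329 and 1, 592 and 2 in DESeq2, 37 and 0 with these groups alone, and 618 genes with the 6 untreated libraries apart. Acceptors against untreated gave 107 and 1, 191 and 0 in DESeq2, 0 members with these groups alone, and 485 and 2 with the 6 libraries apart. Donors against cells with alpha-synuclein gave 1 gene, and 0 with these groups alone. The F tests over times gave 8 genes in donors and 1 in acceptors, 22 and 10 in DESeq2, and 0 in acceptors alone.

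With each number left out in turn, alpha-synuclein against untreated gave 73 to 301 genes and 0 members, acceptors against untreated 0 to 160 and 0 to 1, donors against cells with alpha-synuclein 0 to 2 genes, donors against acceptors 0 to 1 members, and the times 1 to 26 genes in donors and 0 to 3 in acceptors. Counted upwards only, the donor trend gave 161 to 219 genes (365 with all numbers) and 1 to 5 members, the acceptor trend 56 to 242 genes (184), and their difference 12 to 46 genes (73) and 0 to 1 members.

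With the replicate block, the counts were 2524 and 8 for alpha-synuclein, 1438 and 9 for acceptors against untreated, 2 genes for donors against cells with alpha-synuclein, 5839 and 3 for donors against acceptors, and 76 and 18 genes for times in donors and acceptors. With the block and without number 1, 2, 3 or 4 in turn, alpha-synuclein gave 2101, 1877, 1380 and 1620 genes (2 to 8 members) and acceptors against untreated 773, 1101, 647 and 975 (3 to 9). Donors against acceptors gave 4653 to 5466 genes (5466 without number 1, 5168 without number 3) and 0 to 6 members.

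Alternatives by number were added after seeing the data. Numbers 1 and 2 alone gave 0 members for alpha-synuclein and acceptors, and 0 genes for donors against cells with alpha-synuclein. Slc1a3 reversed there in donors against acceptors, at 1.03 (edgeR adjusted p = 0.00687), and 1.00 (0.00372) with the block. Numbers 3 and 4 alone gave 81 and 0, 0 and 0, 0 genes, and 1635 and 4 in the order above. With the block, numbers 1 and 2 gave 1181 and 0 and 911 and 0, and numbers 3 and 4 gave 1265 and 7, 468 and 7, and 6 members in donors against acceptors. The cause was not tested, beyond the fewer samples.

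Limits: 2 numbers carry most counts, Gfap, Aqp4, Gja1 and Hes5 sit near the floor in the others, and no astrocyte sample anchors the scale.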
